A study of Mus musculus with 6 samples.

Results

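Glycolysis, glucose uptake and lactate transport are represented here by 40 genes, taken by symbol from a table of 15982 genes. Every one of the 40 symbols has exactly 1 row there. They are 4 glucose carriers, 4 genes of the first steps from glucose, 6 phosphofructokinase genes, 9 genes from aldolase to pyruvate kinase, 6 genes of lactate and pyruvate handling, 6 monocarboxylate transport genes, Hif1a, and 4 genes of the pentose phosphate pathway. RNA came from primary mouse bone marrow-derived macrophages (BMMs) of 2 genotypes, Ctrl and Bub1 cKO, the second lacking the mitotic kinase gene Bub1 in myeloid cells only. Both genotypes were held for 3 days in M-CSF (20 ng/ml), a macrophage growth factor, and then for 2 days in M-CSF (20 ng/ml) plus RANKL (50 ng/ml), the cytokine that drives osteoclast formation. There were 3 libraries of each genotype, 6 in all, and nothing in the labels says whether they came from separate animals or cultures, so the p-values may cover technical spread alone. The driver of the deletion, the strain and the age of the mice are not given in the sources available here. No untreated cells were part of the comparison, so every value describes cells already exposed to RANKL.

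Glycolysis splits glucose into pyruvate in the cytosol and yields ATP without oxygen. Glucose enters through GLUT carriers, hexokinase traps it as glucose-6-phosphate, phosphofructokinase commits it to breakdown, and pyruvate kinase completes the chain. Pyruvate then goes either to lactate, through lactate dehydrogenase, or into mitochondria, through the pyruvate dehydrogenase complex, which PDK kinases switch off. Lactate leaves the cell through monocarboxylate transporters, several of which need the chaperone basigin to reach the membrane. Glucose-6-phosphate can also enter the pentose phosphate pathway, which makes NADPH and ribose. Many genes of this chain are targets of the hypoxia-inducible factor HIF-1. Macrophages use glycolysis heavily when activated, and osteoclasts draw on both glycolysis and mitochondrial respiration.

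Each gene has 1 expression value per genotype, read as TPM (transcripts scaled to a fixed total), with no value per library. The expression columns of the authors' deposited table carry no unit; they sum to 999891 in Ctrl and 999954 in Bub1 cKO, as TPM does, and CPM would sum alike. The deposited log2 change compares those group values after adding 1, and so understates the change of low genes. The table also holds a test statistic with a standard error, and their product gives the log2 change estimated by the test, called the tested change here. Its 95% interval is taken from that standard error. A gene is called at an adjusted p under 0.05 per the authors' deposited table, in the direction of the statistic.

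Facts of the whole comparison frame these values. Bub1 itself stood at 6.73 TPM in Ctrl against 5.32 TPM in Bub1 cKO per the authors' deposited table, with an adjusted p of 0.985, and since no source available here names the exons removed, 3' tags may lie outside them and check nothing. All 18 macrophage markers were present with a mean of at least 1 TPM, and none of the 8 T and B cell markers in the table reached it. The macrophage markers summed to 4562 TPM in Ctrl against 2972 TPM in Bub1 cKO per the authors' deposited table, 1 of 18 being called, lower: Lyz2, the lysozyme gene (2141 against 762 TPM). Without Lyz2 the sums were 2421 against 2210 TPM; of all 18, 2 were higher and 6 lower with an unadjusted p under 0.05. Lgals3 (1067 against 995 TPM) and Gpnmb (443 against 361 TPM) were the next most abundant per the authors' deposited table. The 15 osteoclast markers summed to 2160 against 2508 TPM there, none of them called and 6 higher at an unadjusted p under 0.05. At that p 2.35% of all genes were higher and 2.46% lower. The most abundant osteoclast markers were Mmp9 (688 against 657 TPM), Ctsk (537 against 696 TPM) and Acp5 (531 against 639 TPM). Nfatc1, singled out as the smallest p of the 15, was at 48.7 against 73.3 TPM, with an adjusted p of 0.094 per the authors' deposited table. Of the erythroid markers 9 of 14 are listed, with a sum of 20.1 TPM in Ctrl against 359 TPM in Bub1 cKO. The 2 called higher per the authors' deposited table are Hbb-bs (5.44 against 77.3 TPM) and Hbb-bt (1.01 against 31.8 TPM). Alas2 and Slc4a1 are at 0 in Ctrl, and Tspo2 and Rhag at 0 in Bub1 cKO. The globin genes Hba-a2, Hbb-bs and Hba-a1 lead the list, and Hba-a2 (8.83 against 169 TPM) and Hba-a1 (4.36 against 77.8 TPM) were not called. Of the neutrophil markers 13 of 14 are listed, with sums of 105 against 242 TPM. The 1 called higher per the authors' deposited table is Cxcr2 (2.59 against 10.9 TPM). Elane, Camp and Retnlg are at 0 in Ctrl, and none is at 0 in Bub1 cKO. The most abundant, none of them called, are S100a9 (38.0 against 115 TPM), S100a8 (41.9 against 92.8 TPM) and Ltf. Ltf has the lower value in Bub1 cKO (12.3 against 6.74 TPM) but a positive statistic (0.22). The part of these markers in the results on glycolysis genes was not tested. In bulk RNA, fewer cells of a type and less RNA per cell cannot be told apart.

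Of the 40 genes 1 was called, a transporter gene, and the abundant RNAs of glycolytic enzymes had near-equal levels in both genotypes. Small changes were usual among all genes of such abundance, as given below. Slc16a6, for a monocarboxylate transporter, rose in Bub1 cKO, with a last exon that overlaps Amz2 on the opposite strand, and none of the other 39 genes passed the threshold. One call in 40 is 2.50%, beside 0.181% of all genes per the authors' deposited table, where 0.113% are called higher and 0.0688% lower. An unadjusted p under 0.05 was reached by 3 genes, or 7.50%, beside 4.81% of all genes and 6.27% of genes averaging at least 1 TPM. Slc16a6 and Slc16a7 were the 2 higher ones, where 2.35% of all genes were higher at that p, and Aldoc was the 1 lower one, where 2.46% were lower. After Slc16a6 the smallest adjusted p of the 40 was 0.740, for Aldoc, and 37 of the genes had an adjusted p of at least 0.9 per the authors' deposited table. Only Pfkfb3, which makes an enzyme that stimulates phosphofructokinase, had a mean below 1 TPM.

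The statistic was positive in 22 and negative in 18 of the genes. Their median log2 change was 0.10 per the authors' deposited table, beside -0.01 over the 10874 symbols with a mean of at least 1 TPM, of which 49.6% had a positive statistic. Summed over the 40 genes, expression was 5330 TPM in Ctrl against 5312 TPM in Bub1 cKO. The 10 genes averaging at least 100 TPM made up most of both sums, with 4896 against 4809 TPM. Their log2 changes ran from -0.19 to 0.16 per the authors' deposited table, and the intervals of their tested changes all lay within 0.5 of 0 on the log2 scale. Their tested changes ran from -0.17 to 0.13. Over all 1058 symbols averaging at least 100 TPM the median size of the tested change was 0.15, so small changes are not particular to these genes. Precision was much lower elsewhere: in 19 of the 40 genes the interval reached a change of 1 or more on the log2 scale, and the standard error ran from 0.086 for Gapdh to 1.28 for Pfkfb3.

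**Figure D1:**
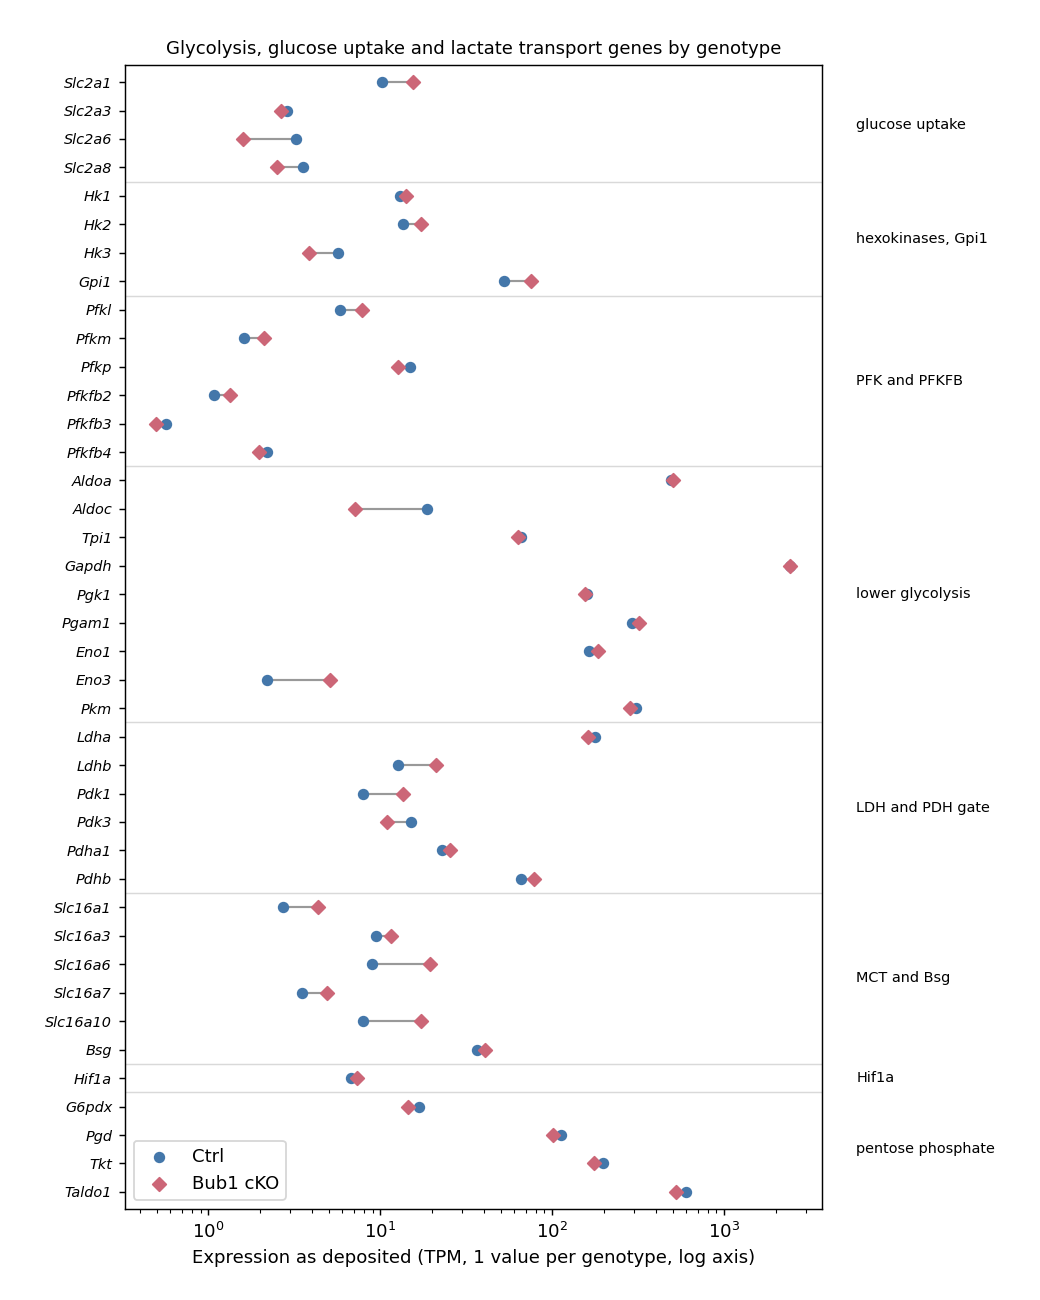
Expression of the 40 genes in Ctrl (circles) and Bub1 cKO (diamonds) on a log axis, in TPM as deposited with 1 value per genotype and so no error bar, grouped by role. The genes of at least 100 TPM have nearly superimposed points, while Aldoc (18.7 against 7.11 TPM), Slc16a6 (9.0 against 19.5 TPM) and Slc16a10 (7.95 against 17.3 TPM) have separated ones.

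**Figure D2:**
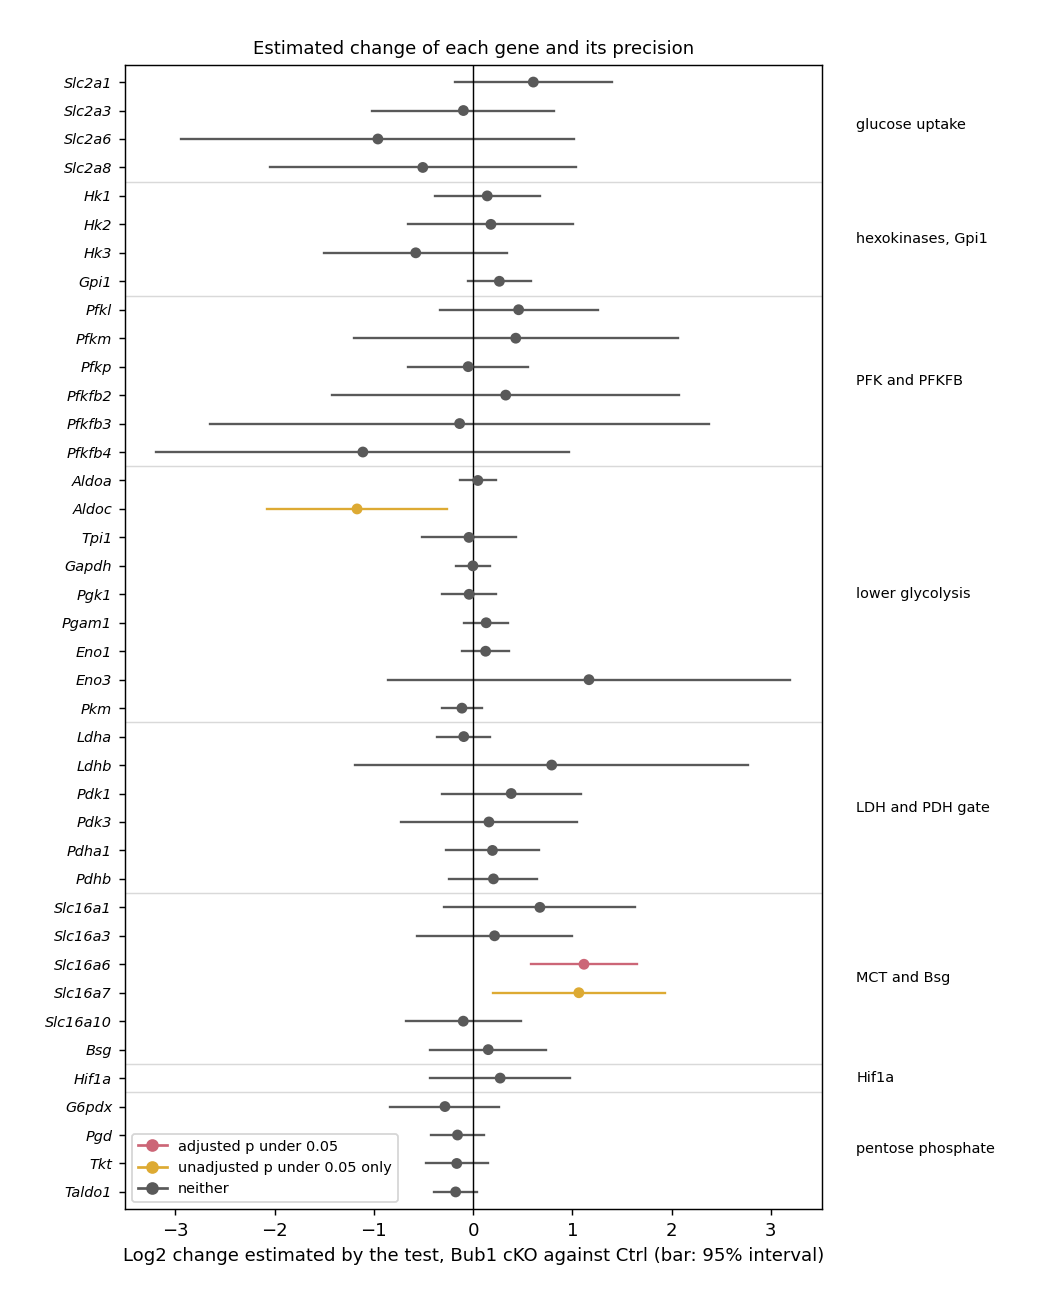
Tested log2 change of each gene, Bub1 cKO against Ctrl, with its 95% interval, by role; colour gives the call. Intervals are narrow for Gapdh and Aldoa and wide for Pfkfb3 and Eno3, and 3 of the 40 do not include 0: those of Slc16a6, Slc16a7 and Aldoc.

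Of the glucose carriers, none was called and 1 of 4 had a positive statistic. Slc2a1 encodes GLUT1, the basal glucose carrier of most cells, and stood at 10.2 TPM in Ctrl against 15.5 TPM in Bub1 cKO per the authors' deposited table. Its tested change was 0.61, with an interval from -0.18 to 1.40. The interval thus includes both no change and a rise of more than 1 on the log2 scale. Slc2a3, for the high-affinity carrier GLUT3, was at 2.87 against 2.63 TPM per the authors' deposited table. Slc2a6, whose carrier GLUT6 sits on lysosomes of macrophages, was at 3.24 against 1.59 TPM there, and its tested change of -0.96 had an interval from -2.94 to 1.02. Slc2a8, for the intracellular carrier GLUT8, was at 3.56 against 2.52 TPM per the authors' deposited table. The intervals of all 4 carriers include 0.

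The entry into glycolysis showed no call. Hk1, for the constitutive hexokinase of the mitochondrial surface, was at 13.0 TPM in Ctrl against 14.1 TPM in Bub1 cKO per the authors' deposited table. Hk2, for the inducible hexokinase of that surface, was at 13.5 against 17.3 TPM there, and its tested change was 0.18 with an interval from -0.65 to 1.01. Hk3, the hexokinase gene typical of myeloid cells, went the other way in its values, 5.65 against 3.85 TPM per the authors' deposited table, with an interval of the tested change from -1.50 to 0.35. The signs of these hexokinase genes therefore differed, and each interval included 0. Gpi1 encodes the isomerase of the next step and stood at 52.3 against 74.9 TPM, or a log2 change of 0.51 per the authors' deposited table. Its tested change was 0.27, from -0.05 to 0.58.

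Phosphofructokinase genes were split evenly, 3 with a positive and 3 with a negative statistic and none called. Among the isoforms of the enzyme, Pfkl (liver type) was at 5.84 against 7.84 TPM, Pfkm (muscle type) at 1.60 against 2.12 TPM, and Pfkp (platelet type) at 15.0 against 12.6 TPM per the authors' deposited table. The bifunctional enzymes set the level of fructose-2,6-bisphosphate, an activator of phosphofructokinase. Pfkfb2 was at 1.08 against 1.34 TPM, Pfkfb3 at 0.564 against 0.499 TPM, and Pfkfb4 at 2.20 against 1.98 TPM per the authors' deposited table. At these levels little could be detected: the interval of Pfkfb4 ran from -3.19 to 0.97 and that of Pfkfb3 from -2.65 to 2.38. No gene of this group can be described as stable from these values.

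From aldolase to pyruvate kinase the abundant genes were measured closely. Gapdh, the dehydrogenase often used as a reference gene, stood at 2399 TPM in Ctrl against 2407 TPM in Bub1 cKO per the authors' deposited table, with an interval of the tested change from -0.17 to 0.17. Aldoa, the main aldolase gene, was at 489 against 502 TPM there, from -0.13 to 0.23. Gapdh and Aldoa had the 2 smallest standard errors of the 40 genes. Pgam1, for phosphoglycerate mutase, was at 292 against 319 TPM, and Eno1, for the main enolase, at 164 against 183 TPM per the authors' deposited table. Pgk1, for the first ATP-making step, was at 160 against 154 TPM, and Tpi1, for triose phosphate isomerase, at 65.3 against 63.5 TPM there. Pkm, for pyruvate kinase, was at 308 against 284 TPM per the authors' deposited table, with an interval from -0.31 to 0.09. A gene-level value does not separate the M1 and M2 splice forms of Pkm.

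Minor isoforms of the same steps differed more in their values. Aldoc, the aldolase gene best known from brain, stood at 18.7 TPM in Ctrl against 7.11 TPM in Bub1 cKO, which is a log2 change of -1.28 per the authors' deposited table. The tested change was -1.17 (standard error 0.47), with an interval from -2.08 to -0.26, an unadjusted p of 0.012 and an adjusted p of 0.740 per the authors' deposited table, so it was not called. With a pseudocount of 5 its log2 change was -0.97. Eno3, the enolase gene of muscle, was at 2.20 against 5.13 TPM per the authors' deposited table, or a log2 change of 0.94, but its tested change had an interval from -0.86 to 3.19. The main isoforms of these 2 steps, Aldoa and Eno1, were close to even.

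Lactate dehydrogenase and the pyruvate gate held no call, with 5 of 6 statistics positive. Ldha, for the subunit that favours lactate formation, was at 176 TPM in Ctrl against 161 TPM in Bub1 cKO per the authors' deposited table, with an interval of the tested change from -0.36 to 0.17. Ldhb, for the subunit that favours pyruvate, was at 12.7 against 21.0 TPM there, with an interval from -1.19 to 2.77. The first is a close measurement and the second is not. Pdk1 encodes a kinase that shuts the pyruvate dehydrogenase complex and stood at 7.98 against 13.5 TPM, or a log2 change of 0.69 per the authors' deposited table; the tested change was 0.38, from -0.32 to 1.09. Pdk3, for another such kinase, was at 15.0 against 10.9 TPM per the authors' deposited table, while its statistic was positive (0.35). Pdha1 and Pdhb encode the subunits of the enzyme that these kinases act on. Pdha1 was at 22.9 against 25.5 TPM and Pdhb at 65.4 against 78.0 TPM per the authors' deposited table, both with intervals that include 0.

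Monocarboxylate transport was the role with the single call. All 6 genes had higher values in Bub1 cKO than in Ctrl per the authors' deposited table, and 5 of 6 had a positive statistic. Their expression summed to 69.2 TPM in Ctrl against 98.2 TPM in Bub1 cKO. The largest differences within that sum are those of Slc16a6 and Slc16a10 (7.95 against 17.3 TPM), and Slc16a10 is the gene with a negative statistic (-0.33). Slc16a6 encodes MCT7, shown in zebrafish to export ketone bodies from liver cells, and rose from 9.0 to 19.5 TPM per the authors' deposited table. The log2 change of Slc16a6 was 1.04 and its adjusted p 0.031 per the authors' deposited table. The tested change was 1.12 (standard error 0.27), with an interval from 0.58 to 1.65.

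The last exon of Slc16a6 overlaps another gene, and 3' tag libraries read near transcript ends. Slc16a6 (ENSMUSG00000041920.14) spans 109450855 to 109473598 on the minus strand of chromosome 11, and Amz2, a metallopeptidase gene, spans 109425946 to 109452813 on the plus strand (GENCODE M21, GRCm38). The genes overlap tail to tail over 1959 bases, and the 611 bases of the last exon of an Amz2 transcript (109451762 to 109452372) lie wholly inside the 2540 bases of the last exon of a Slc16a6 transcript (109450855 to 109453394). That Amz2 exon starts 907 bases from the 3' end of Slc16a6, so the terminal 907 bases of Slc16a6 hold no Amz2 exon, and tags there can be assigned within the pair without strand. Of 8 annotated Amz2 transcripts 2 reach into Slc16a6 and 6 end before it, and the end of 1 Slc16a6 transcript falls inside an Amz2 exon. Amz2, which was singled out from its values, stood at 17.0 TPM in Ctrl against 9.23 TPM in Bub1 cKO per the authors' deposited table, with a tested change of -1.10 (from -2.08 to -0.12) and an adjusted p of 0.910. Amz2 thus had the lower value where Slc16a6 had the higher one, and was the 1 overlapping gene with an unadjusted p under 0.05 among those at 11 of the 40 genes. The 2 genes together had 26.0 TPM in Ctrl against 28.7 TPM in Bub1 cKO, which is a log2 change of 0.14 by the same formula, for which no test can be had. Amz2 was picked from its values and is lower in Bub1 cKO, so adding it had to shrink the change. The sum therefore cannot show whether tags were split wrongly between the 2 genes. The sources available here do not say whether the counting used strand or where the tags of either gene fell. Without strand, tags in the 1052 exonic bases that Slc16a6 and Amz2 share cannot be told apart. Of the 40 genes 10, Slc16a6 included, share exonic bases with a gene on the opposite strand, so this limit is not its alone. Among them are Pfkp (748 bases with Pitrm1), Pdha1 (603 with Map3k15) and G6pdx (418 with Ikbkg). The part of Amz2 in the rise of Slc16a6 was not tested.

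**Figure D3:**
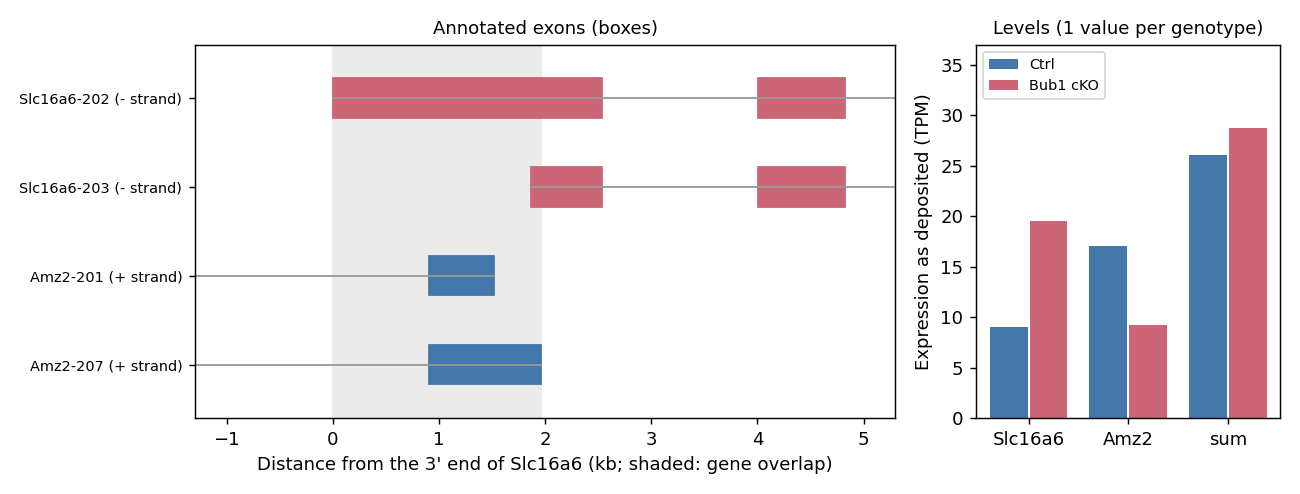
Left, annotated exons (boxes) of the transcripts that reach the overlap, by distance in kb from the 3' end of Slc16a6, with the overlap of the genes shaded; right, expression in TPM as deposited, 1 value per genotype, for each gene and their sum. Slc16a6 is higher (9.0 against 19.5 TPM) and Amz2 lower (17.0 against 9.23 TPM) in Bub1 cKO, and the sums are 26.0 against 28.7 TPM.

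The other transporters were not called. Slc16a7, for MCT2, a high-affinity carrier of pyruvate and lactate, stood at 3.52 TPM in Ctrl against 4.90 TPM in Bub1 cKO per the authors' deposited table, or a log2 change of 0.39. Its tested change was larger, 1.07 with an interval from 0.20 to 1.93, and the unadjusted p was 0.016 and the adjusted p 0.809 per the authors' deposited table. Slc16a10, for an aromatic amino acid carrier of the same family, was at 7.95 against 17.3 TPM per the authors' deposited table, or a log2 change of 1.03 that matches that of Slc16a6 in size. Its statistic was nonetheless -0.33 and its tested change -0.10, from -0.68 to 0.48. The group values of Slc16a10 are thus far apart, while its tested change lies near 0. Slc16a1, for the widespread lactate carrier MCT1, was at 2.70 against 4.34 TPM, and Slc16a3, for the lactate exporter MCT4, at 9.38 against 11.5 TPM per the authors' deposited table. Bsg, for the chaperone basigin, was at 36.7 against 40.7 TPM there. The interval of Slc16a1 ran from -0.29 to 1.64 and that of Slc16a3 from -0.56 to 1.00, and both include 0.

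Slc16a10 was the clearest of 4 genes in which the deposited group values and the test differ by more than 1 standard error. The others were Slc16a7, Gpi1 and Pdk3, and in Pdk3, as in Slc16a10, the signs are opposite. Among all genes averaging at least 10 TPM, 801 of 5159, or 15.5%, differ to this extent. Outside that set lie 13 of the 40 genes, Slc16a7 (mean of 4.21 TPM) among them. The sources available here do not say how either was computed from the libraries.

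**Figure D4:**
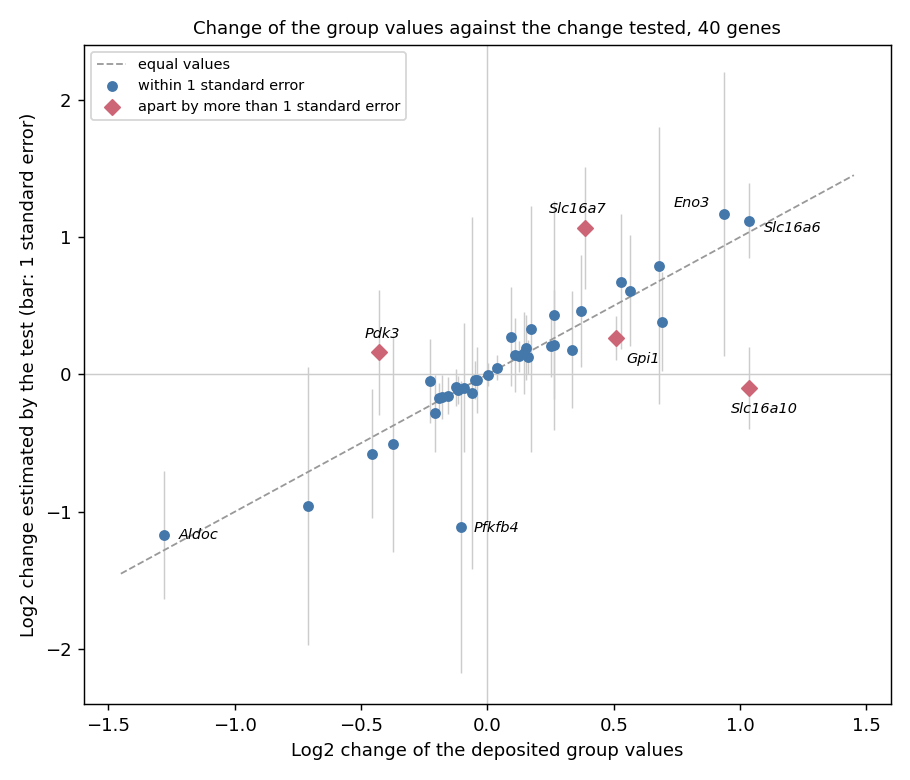
Log2 change of the deposited group values (x axis) against the tested log2 change (y axis, bar of 1 standard error) for the 40 genes, Bub1 cKO against Ctrl. Most genes lie near the dashed line of equal values, while Slc16a10 has 1.03 on the x axis and -0.10 on the y axis, and Slc16a7, Gpi1 and Pdk3 also stand more than 1 standard error away.

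The pentose phosphate pathway genes all had lower values in Bub1 cKO, by similar amounts, and none was called. G6pdx, for the enzyme that admits glucose-6-phosphate, was at 16.8 TPM in Ctrl against 14.4 TPM in Bub1 cKO per the authors' deposited table. Pgd, for the second NADPH-making step, was at 113 against 101 TPM there. Tkt, for transketolase, was at 197 against 174 TPM and Taldo1, for transaldolase, at 598 against 524 TPM per the authors' deposited table. The log2 changes of these 4 genes ran from -0.21 to -0.16, and their summed expression was 924 TPM in Ctrl against 813 TPM in Bub1 cKO. Each interval included 0, the nearest to passing being Taldo1 with a tested change of -0.17 (from -0.39 to 0.04) and an adjusted p of 0.985 per the authors' deposited table. Other genes of this pathway, 9 of 11 listed in the table, had 6 positive and 3 negative statistics, and none was called. Of these, Tigar, for a phosphatase that lowers fructose-2,6-bisphosphate, was at 1.82 against 3.09 TPM, Prps1, for a phosphoribosyl pyrophosphate synthetase, at 14.8 against 10.7 TPM, and Rpe, for the ribulose-phosphate epimerase, at 8.33 against 6.44 TPM per the authors' deposited table. Shpk, for sedoheptulokinase and singled out from its values, was at 0.105 against 1.17 TPM there, with an unadjusted p of 0.032.

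Hif1a encodes the oxygen-regulated subunit of HIF-1, whose activity is set mainly through protein stability rather than RNA level. It stood at 6.77 TPM in Ctrl against 7.30 TPM in Bub1 cKO per the authors' deposited table, with an interval of the tested change from -0.43 to 0.98. Gm49321, a gene model on the same strand that shares 148 exonic bases with Hif1a, was at 2.95 TPM in Ctrl and is listed at 0 in Bub1 cKO per the authors' deposited table, so the split of reads between them is uncertain. Of 14 other factors of the pathway none was called, 7 having a positive and 7 a negative statistic. Cited2, which competes with HIF for its coactivators, had the smallest p of these, at 58.7 against 78.4 TPM with an adjusted p of 0.935 per the authors' deposited table. Hif1an, for a hydroxylase that inhibits HIF, was at 5.61 against 4.79 TPM, and Crebbp, for one of its coactivators, at 122 against 138 TPM there. Vhl, for the ligase subunit that marks HIF for destruction, was singled out from its values, which were 37.6 against 5.03 TPM per the authors' deposited table, while its statistic was only -0.63 and its interval ran from -2.28 to 1.17.

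HIF target genes outside glycolysis included 1 call among the 22 of 25 listed in the table. Tfrc, for the transferrin receptor and regulated by iron as well as HIF, rose from 25.7 to 56.5 TPM per the authors' deposited table, or a log2 change of 1.11, at an adjusted p of 0.00018; the standard error of its tested change was 0.21. Of the 22 genes 14 had a positive and 8 a negative statistic, with a median log2 change of 0.12. Hmox1, for heme oxygenase, was at 23.6 against 38.3 TPM and Car12, for a carbonic anhydrase, at 30.1 against 22.0 TPM per the authors' deposited table, neither of them called. The erythroid markers, whose cells need iron for heme, had the higher sum in Bub1 cKO given above, and their part in the rise of Tfrc was not tested.

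Promoter letters are shown for 3 genes of the lactate route that hold ACGTG, through which HIF-1 can act. Those of Aldoc, which had the lowest statistic of the 40, are shown beside them. The sequences are the 250 bases before a RefSeq transcription start (GRCm38.p6), 5′ to 3′ on the gene's strand, and capitals mark ACGTG, the core of the hypoxia response element, on either strand (read as CACGT on the other). Ldha lies at chr7:46845554-46845803, Pgk1 at chrX:106186850-106187099, Slc16a3 at chr11:120948817-120949066 and Aldoc at chr11:78322823-78323072, all on the plus strand.
Ldha: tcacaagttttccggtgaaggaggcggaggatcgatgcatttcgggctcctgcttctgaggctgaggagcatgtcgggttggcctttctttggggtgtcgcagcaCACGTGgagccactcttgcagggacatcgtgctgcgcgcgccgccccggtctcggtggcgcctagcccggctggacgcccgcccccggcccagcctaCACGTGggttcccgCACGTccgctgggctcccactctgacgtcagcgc
Pgk1: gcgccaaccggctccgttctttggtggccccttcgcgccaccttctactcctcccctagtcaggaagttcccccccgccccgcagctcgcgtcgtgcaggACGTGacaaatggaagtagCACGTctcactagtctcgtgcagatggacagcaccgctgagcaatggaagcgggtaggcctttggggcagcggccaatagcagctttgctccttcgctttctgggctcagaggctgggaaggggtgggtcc
Slc16a3: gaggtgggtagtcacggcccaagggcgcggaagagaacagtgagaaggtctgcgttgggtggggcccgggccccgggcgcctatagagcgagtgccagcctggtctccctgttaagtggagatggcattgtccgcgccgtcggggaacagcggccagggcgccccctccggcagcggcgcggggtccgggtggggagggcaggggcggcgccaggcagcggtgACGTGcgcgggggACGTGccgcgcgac
Aldoc: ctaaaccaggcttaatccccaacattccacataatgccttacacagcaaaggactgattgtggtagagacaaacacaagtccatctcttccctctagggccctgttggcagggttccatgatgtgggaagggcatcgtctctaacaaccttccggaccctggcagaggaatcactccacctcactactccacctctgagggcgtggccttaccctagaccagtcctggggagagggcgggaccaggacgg

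Ldha held ACGTG 5 times, counting both strands. Of its sites 2 were the palindrome CACGTG, the E-box bound by Myc, which counts once on each strand. Pgk1 and Slc16a3 held ACGTG 2 times each, and the Aldoc window did not hold it. The Aldoc letters do hold GCGTG, so that window does not lack every form of the core. A RefSeq promoter was found for 36 of the 40 genes; Bsg, Slc16a6, Slc16a7 and Slc2a3 had no entry. ACGTG was present within 250 bases of a start in 16 of the 36 (44.4%), beside 18.5% of 27025 genes with a RefSeq promoter and 25.8% of the 7979 of these with a mean of at least 1 TPM in the table. CACGTG was present in 6 of the 36 (16.7%), beside 6.86% and 10.3%. A gene was counted if any of its windows held the letters, and genes differ in their number of windows. Counted by window, ACGTG was in 38.5% of the 52 windows of the members, beside 16.6% of all 32851 windows. For CACGTG the shares were 11.5% and 6.02%. Among the 16 genes with ACGTG 11 had a positive statistic and the median log2 change was 0.11, and among the 20 without it 8 had a positive statistic and the median was -0.02. The counts of direction have no background of all genes split alike. The motif counts are counts of letters, which show neither binding nor its absence.

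Genes that neighbour glycolysis gave the same view of few calls. In 8 lists of such genes, 111 of 140 were in the table and Tfrc was the 1 call, or 0.901%, beside 0.181% of all genes. An unadjusted p under 0.05 was reached by 4 higher and 4 lower genes, 7.21% together, beside 4.81% of all genes (2.35% higher and 2.46% lower). Of the 4 lower ones 3 belong to the list of gluconeogenesis and glycogen genes, of which 19 of 22 were in the table: Phka1, Phka2 and Pygl. Over those 19 genes 8 statistics were positive and 11 negative, and the median log2 change was -0.02. Phka2, for a subunit of the kinase that switches on glycogen phosphorylase, was at 11.2 TPM in Ctrl against 4.50 TPM in Bub1 cKO, Phka1, for another form of that subunit and singled out from its values, at 0.379 against 0.023 TPM, and Pygl, for the liver-type phosphorylase, at 10.7 against 5.47 TPM per the authors' deposited table. G6pc3, for the widespread glucose-6-phosphatase, was at 10.7 against 5.19 TPM per the authors' deposited table. These 4 genes are the lower end of the list, and none was called, the smallest adjusted p being 0.841, for Phka2.

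Pyruvate entry into mitochondria held no call. All 11 genes of that list were in the table, 6 with a positive and 5 with a negative statistic, and none had an unadjusted p under 0.05. Pdk2, for another kinase of the complex, was at 2.45 against 0.728 TPM, Pdpr, for a regulator of its phosphatase, at 2.48 against 1.67 TPM, and Pdhx, for a structural subunit, at 9.74 against 11.7 TPM per the authors' deposited table. Among further glycolysis genes, 10 of 24 were listed and 4 reached a mean of 1 TPM, so isoforms of liver, muscle and testis were mostly not listed or below that mean. The sources available here do not say why a gene is not listed. Adpgk, for an ADP-dependent glucokinase, was at 2.59 against 4.65 TPM, Minpp1, for an inositol polyphosphate phosphatase, at 4.68 against 3.04 TPM, and Slc2a9, for a urate carrier of the GLUT family, at 1.83 against 0.686 TPM per the authors' deposited table. Of other monocarboxylate transporters 5 of 11 were listed, none called; Emb, for the chaperone embigin, was at 37.4 against 39.5 TPM there and Slc16a13, for MCT13, at 1.43 against 0.583 TPM. In the list of glucose-sensing and Myc regulators 21 of 22 were listed, 11 with a positive statistic and none called. Prkag1, for a subunit of the energy sensor AMPK, was at 36.9 against 27.8 TPM, Myc at 4.88 against 7.69 TPM, and Rptor, for a subunit of the growth regulator mTORC1, at 2.81 against 4.12 TPM per the authors' deposited table.

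**Figure D5:**
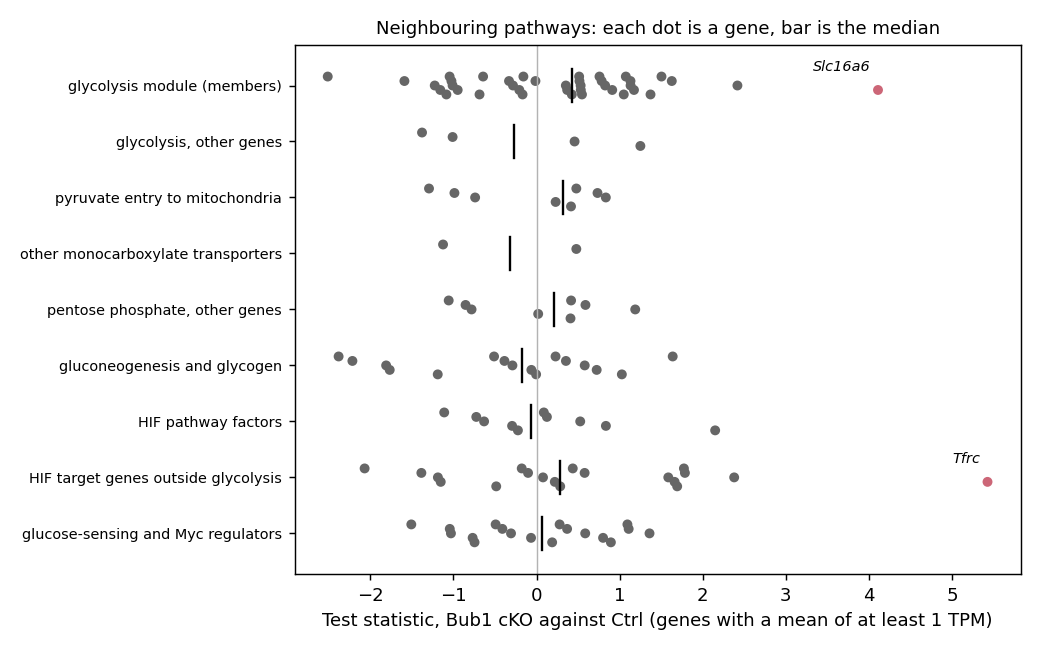
Test statistic of each gene with a mean of at least 1 TPM (dots), Bub1 cKO against Ctrl, for the 40 glycolysis genes (39 of which reach that mean) and for 8 lists of neighbouring genes; the bar is the median and coloured dots are called genes. Slc16a6 and Tfrc are the 2 called genes shown, and each list has dots on both sides of 0.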

How the data were processed

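Libraries were 3' tag libraries (QuantSeq, 25 ng RNA each), per the labels' protocols, and the deposited header line points to RaNA-seq, an online analysis service. The sources available here do not name the aligner, genome build, annotation or test. Expression is 1 deposited value per genotype, read as TPM from the column sums. Adding 1 to both group values and taking log2 of their ratio returns the deposited log2 change to within 0.002 in 15982 genes. From the authors' statistic, a score in its own unit, a 2-sided normal test returns the deposited p-value to within 0.001 in 15974 genes.

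The tested change (statistic times standard error) and its 95% interval were computed here (Python 3.11.15, SciPy 1.17.1). Adjusted p-values are the authors'. Benjamini-Hochberg adjustment of the deposited p-values over all genes returned them to within 0.001 in 15394 of 15982 genes, and the sources available here do not say how the authors adjusted them. They were also recomputed by Benjamini-Hochberg over the 10881 genes averaging at least 1 TPM, a step tested on simulated data. Gene IDs without version were matched to GENCODE M21 (15910 of 15982). The depth of the libraries is unknown.

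The fitted models planned for values per library were replaced by the authors' test. Members and lists were chosen with earlier results of these data known. All 40 members are named, with the 3 genes of smallest p among those averaging at least 1 TPM in each pathway list. So are the 3 most abundant genes of the macrophage, osteoclast, erythroid and neutrophil marker lists. Of the dendritic, stromal and platelet markers (sums of 9.57 against 4.71, 5.34 against 5.85 and 266 against 291 TPM) none was called. The dendritic marker Itgax, singled out from its values, had the lower value in Bub1 cKO (5.34 against 1.69 TPM) but a positive statistic (2.35). Cxcr2 and Hbb-bt are named because they were called, and the text marks any further gene that was picked from its values. Protein sequences were not used here.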

Additional observations from a re-analysis of the deposited data

How the results depend on the processing

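No paired analysis was possible because the table holds 1 value per genotype, and for the same reason the planned fits that leave out a library or use the replicate number as a block were not run. At an unadjusted p under 0.05 in place of the adjusted one, 2 members were higher and 1 lower, and 4 and 4 genes of the neighbouring lists. An adjusted p under 0.1, or adjustment over genes averaging at least 1 TPM, left the count at 1 member higher and 0 lower. The median log2 change of the members stayed between 0.06 (pseudocount 5) and 0.13 (tested change). Taking the tested change in place of the deposited one turned the sign in 3 of 40 members, Gapdh (-0.0011), Pdk3 (0.16) and Slc16a10 (-0.10). Centring on the median of genes averaging at least 10 TPM turned Gapdh (-0.0035). Pseudocounts of 0.1 and 5, and rescaling without globin and mitochondrial-genome transcripts, turned none of the 40. Summing Slc16a6 with Amz2, an alternative chosen after seeing the data, gave a log2 change of 0.14 in place of 1.04. Adding a gene that is lower in Bub1 cKO had to shrink the change, so the sum is no check of the call. With no values per library, the depth behind a value is unknown, and the authors' standard error alone limits what could be detected.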
